A study of Mus musculus with 6 samples.

Results

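RNA of peritoneal cavity (PC) B1a cells, sorted by flow cytometry with CD11b and CD5 in the gate, was read on 6 one-colour Agilent mouse arrays, and 10 transcripts known from peritoneal macrophages were followed on every array. These are *Retnla*, *Alox15*, *Emr1* (the older name of *Adgre1*, which encodes F4/80), *Csf1r*, *Lyz2*, *Cd68*, *Fn1*, *C1qa*, *C1qb* and *C1qc*. Every probe of these genes was taken, which gave 13 of the 55681 non-control probes and 10 of 36163 gene names. The genes were picked with their values on these arrays known, so their differences between genotypes are given as a description and without a test. Knockout samples came from p40-/-CD25-/- mice and control samples from p40-/-CD25+/- mice, also written p40-/-IL-2Rα-/- and p40-/-IL-2Rα+/-. Both groups thus lack p40, the subunit shared by IL-12 and IL-23, and the control mice keep 1 intact allele of the IL-2 receptor α chain (CD25). All mice were C57Bl/6 females of 7 weeks, each group had 3 samples, and each sample drew on at least 3 mice. The labels do not say whether the samples of a group were collected separately, so the spread between them may be technical in part.

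Macrophages are the other large resident population of the mouse peritoneal cavity beside B cells and clear dying cells and debris there. Large resident macrophages carry high F4/80 and CD11b and live on signals through the M-CSF receptor, while a smaller population arises from monocytes. The CD11b antigen on which B1a cells are sorted is also present on macrophages, and C1q, lysozyme and fibronectin are among the abundant products of these cells.

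Values below are log2 processed signals relative to the 75th percentile of the array, and within a sentence they stand in the order of replicates 1, 2 and 3. Testing was limited to probes detected above background throughout at least 1 genotype, 24751 probes of 18252 genes, and all 13 macrophage probes were detected on every one of the 6 arrays. The knockout arrays were dimmer, at a 75th percentile of 66.5 (knockout 2) to 162 against 252 to 272 for control. All arrays lay on 1 slide and no spot was saturated. *Il2ra*, the gene deleted in knockout mice, was 1.62, 1.13 and 1.35 in control and -0.31, -0.59 and 0.86 in knockout samples (log2 difference -1.38, standard error 0.37, limma adjusted p = 0.122), so its signal was lower but present. *Il12b*, the p40 gene that both groups lack, was also detected everywhere; whether these probes lie in the deleted parts is not known, so they check the labels only in part. Of the genes of the sort, *Cd5* was 3.70, 3.54 and 3.56 in control and 3.60, 3.05 and 3.45 in knockout samples.

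*Retnla* was the macrophage transcript with the widest gap between genotypes. It encodes RELMα, a secreted protein that macrophages make in response to IL-4 and IL-13. Its probe, at chr16:48844447-48844506 (mm9), gave 4.14, 2.64 and 1.43 in control and -0.10, -1.65 and 0.79 in knockout samples. All 3 knockout values lay below all 3 control values, and a gap of 0.64 separated control 3 from knockout 3. The group means were 2.74 ± 1.36 (SD, n = 3) in control and -0.32 ± 1.24 (SD, n = 3) in knockout samples, a log2 difference of -3.06 or 8.33-fold. Under 14 other settings of the processing, leaving out each array included, this difference stayed between -3.71 and -2.36. In bulk RNA, fewer macrophages in a sort and less RNA per macrophage cannot be told apart, nor can the signal of macrophages be told apart from that of B cells.

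The 250 bases before the start of *Retnla* are shown because this transcript parted from the other macrophage genes, and those of *C1qb* and *C1qc* because these chains moved together. They are RefSeq sequences of GRCm38.p6, and capitals mark GAGGAA, the core that the macrophage factor PU.1 binds, or its reverse complement TTCCTC. The *Retnla* stretch lies on the plus strand at chr16:48842359-48842608, and those of *C1qb* and *C1qc* on the minus strand at chr4:136886201-136886450 and chr4:136892915-136893164.
Retnla: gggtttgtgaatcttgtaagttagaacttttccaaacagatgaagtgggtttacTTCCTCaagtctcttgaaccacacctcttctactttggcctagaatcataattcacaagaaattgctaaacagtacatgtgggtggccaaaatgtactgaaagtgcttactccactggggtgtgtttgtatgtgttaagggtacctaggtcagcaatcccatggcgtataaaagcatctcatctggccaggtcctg
C1qb: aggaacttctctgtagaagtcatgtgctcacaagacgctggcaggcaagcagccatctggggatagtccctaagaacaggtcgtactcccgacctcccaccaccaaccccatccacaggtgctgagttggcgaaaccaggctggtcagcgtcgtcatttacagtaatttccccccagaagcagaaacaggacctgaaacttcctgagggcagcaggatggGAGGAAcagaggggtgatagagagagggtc
C1qc: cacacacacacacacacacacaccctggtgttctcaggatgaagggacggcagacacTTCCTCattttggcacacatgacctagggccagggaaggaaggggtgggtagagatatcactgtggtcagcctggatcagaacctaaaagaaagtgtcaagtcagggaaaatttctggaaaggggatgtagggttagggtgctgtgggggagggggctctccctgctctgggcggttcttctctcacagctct
Each of the 3 stretches held 1 match, in the given orientation in *C1qb* and in the reverse one in *Retnla* and *C1qc*. Promoters were listed for 5 of the 10 genes, and 4 of these 5 held a match, all but *Lyz2*. Over all 32851 promoters of the same length, 23.3% held a match, and a match of these letters is not a binding site.

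**Figure D1:**
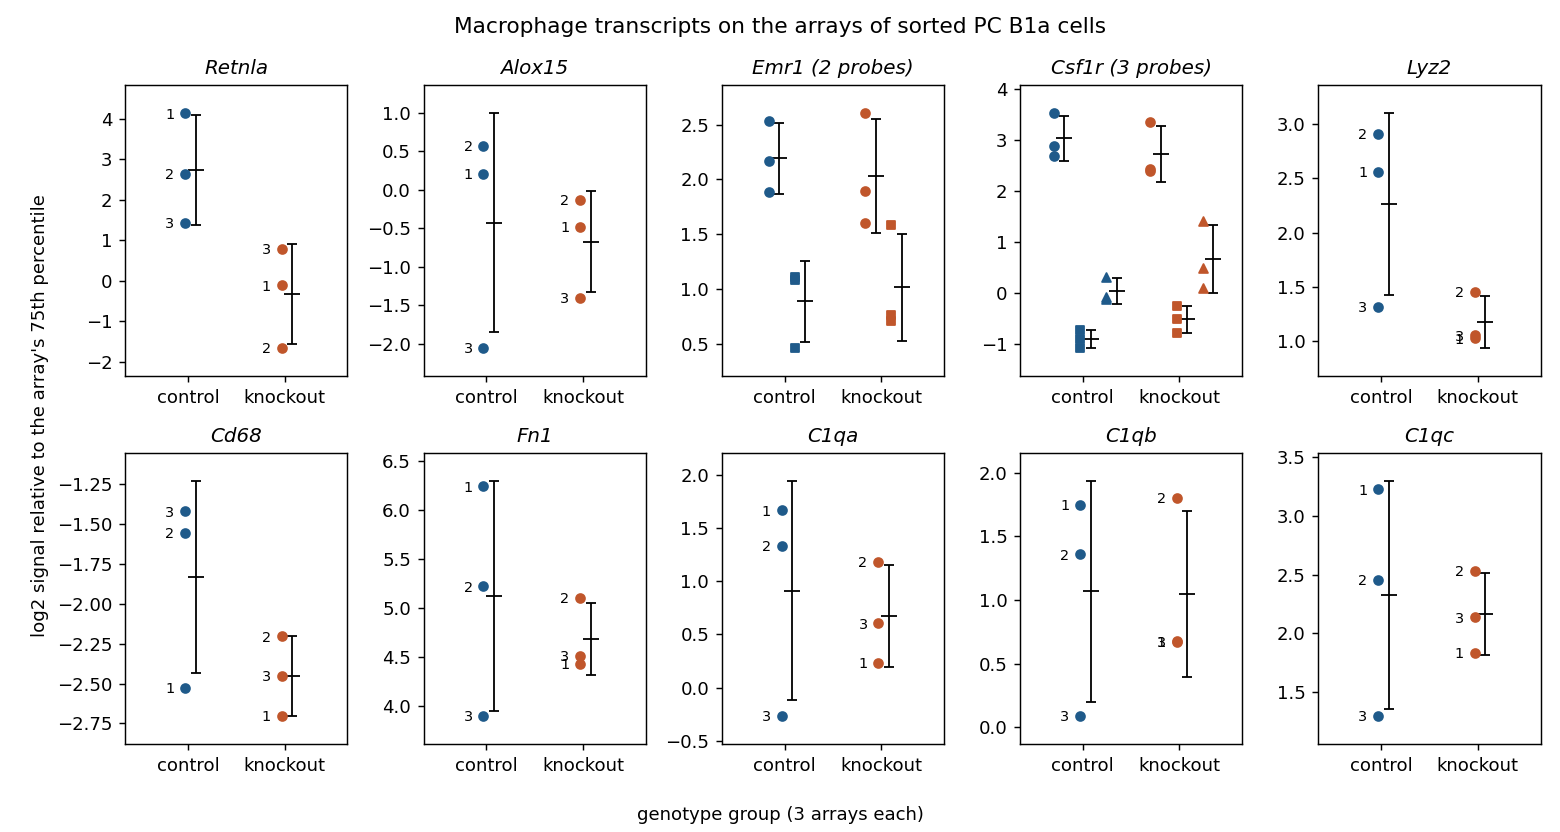
The log2 signal relative to the array's 75th percentile is plotted for each macrophage gene in control (blue) and knockout (orange) samples, with 1 point per array numbered by replicate, different symbols for different probes of a gene, and bars for the mean ± SD of 3 arrays. *Retnla* is the only gene shown whose groups do not overlap, and its values span 4.14 to -1.65.

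The other 12 probes overlapped between genotypes. Of all 13 macrophage probes, 1 had every knockout value below every control value and none had them above, and among all tested probes these shares were 19.6% and 15.6%. Since the genes were picked on these values, nothing is read from that count. Without control 3, the groups of 5 probes did not overlap, those of *Retnla*, *Lyz2*, *Alox15*, *Fn1* and *C1qa*, all with the knockout arrays below. Groups part more easily with fewer arrays, and the share of all tested probes for that split is not given here. Nothing is therefore read from this count either.

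*C1qa*, *C1qb* and *C1qc* encode the A, B and C chains of C1q, which starts the classical complement pathway and tags dying cells for uptake. Their probes lie within 15891 bases of each other on chromosome 4, at chr4:136452409-136452468, chr4:136436578-136436637 and chr4:136445766-136445825 (mm9, minus strand). *C1qa* was 1.67, 1.33 and -0.26 in control and 0.23, 1.18 and 0.60 in knockout samples. *C1qb* was 1.75, 1.36 and 0.09 in control and 0.68, 1.80 and 0.67 in knockout samples. *C1qc* was 3.23, 2.45 and 1.30 in control and 1.83, 2.53 and 2.14 in knockout samples. In all 3 chains control 1 was the highest and control 3 the lowest control, and control 3 was lower than every knockout array. The log2 differences between group means were -0.24, -0.02 and -0.16, smaller than the SD of either group in each case. Centred on its own mean, each chain differed from the others by at most 0.46 on any array.

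The likeness of the C1q chains was read from different oligonucleotides. The 60-base probes of *C1qa* and *C1qb*, which were designed on the transcripts, are shown with those of *Alox15*, *Lyz2* and 1 probe of *Emr1* in lower case, 5′ to 3′, so that the sequence behind each signal can be seen. The *Emr1* probe shown is the dimmer one, at chr17:57620350-57620409, and not the brighter one that represents the gene in the averages.
C1qa: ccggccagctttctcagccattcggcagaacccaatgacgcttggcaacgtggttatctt
C1qb: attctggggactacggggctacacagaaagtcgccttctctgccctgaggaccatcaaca
Alox15: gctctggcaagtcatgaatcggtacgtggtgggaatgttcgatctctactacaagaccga
Lyz2: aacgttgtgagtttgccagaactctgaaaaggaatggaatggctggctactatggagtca
Emr1: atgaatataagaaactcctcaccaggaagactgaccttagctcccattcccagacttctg
No 2 of the C1q probes shared a run of more than 6 bases on either strand. The *Lyz2* probe shared at most 6 bases in a row with the probe of its near-identical neighbour *Lyz1*; whether the *Lyz2* probe also binds *Lyz1* RNA was not tested.

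The *C1qc* probe was spotted 10 times on each array, which gives the spread between spots of 1 array. These spots share the RNA, labelling and hybridisation of their array, so their spread leaves out the error of those steps and of sampling the mice. Between 7 and 10 of these spots per array were kept after outlier spots were removed, and their SD on an array was 0.02 to 0.04. The highest spot of control 3 was at 1.33 and the lowest spot of control 1 at 3.19, so that the spots of the 3 control arrays did not overlap. Between control 1 and control 3 the *C1qc* signal differed 3.82-fold, and among the knockout arrays the range was 1.62-fold.

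**Figure D2:**
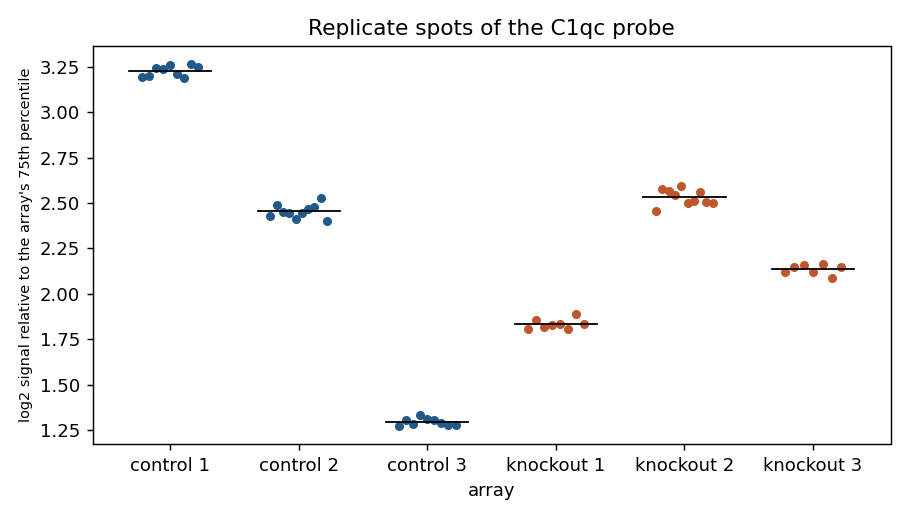
Each point is 1 of up to 10 replicate spots of the *C1qc* probe on an array, as log2 signal relative to the array's 75th percentile, and the lines are array means. Spots of an array lie within a narrow band, with SDs of 0.02 to 0.04, while array means run from 1.30 in control 3 to 3.23 in control 1.

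*Fn1* encodes fibronectin, a matrix protein that resident macrophages secrete. Its probe, at chr1:71632116-71632175, gave 6.24, 5.22 and 3.90 in control and 4.43, 5.10 and 4.51 in knockout samples. The control arrays spread 5.06-fold and enclosed all 3 knockout values, which spread 1.60-fold. *Alox15*, the 12/15-lipoxygenase of resident peritoneal macrophages that oxidises arachidonic acid, was read by a probe over chr11:70159115-70159339, a span of 225 bases that takes in an intron. It gave 0.21, 0.57 and -2.05 in control and -0.48, -0.13 and -1.40 in knockout samples. Replicate 3 was the lowest array in both groups for *Alox15*, and the mean difference of -0.25 changed sign in 3 of 14 other settings.

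*Emr1* and *Csf1r* mark the macrophage lineage, as the F4/80 antigen and as the receptor for M-CSF and IL-34. The brighter probe of *Emr1*, at chr17:57622868-57622927, gave 2.53, 2.17 and 1.89 in control and 1.60, 2.60 and 1.90 in knockout samples. Its other probe, at chr17:57620350-57620409, gave 1.12, 1.09 and 0.47 in control and 0.71, 1.58 and 0.76 in knockout samples. Knockout 2 was the highest of all 6 arrays by both probes, and the mean differences were -0.16 and 0.13.

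*Csf1r* was read by 3 probes. The brightest gave 3.52, 2.87 and 2.69 in control and 2.39, 3.35 and 2.43 in knockout samples, a mean difference of -0.31. The probe next in brightness gave -0.12, 0.32 and -0.08 against 0.50, 1.40 and 0.11, and the dimmest -0.72, -0.90 and -1.07 against -0.50, -0.24 and -0.77. These probes thus disagreed in sign, at 0.63 and 0.39 for the dimmer probes, and the 3 agreed only in that knockout 2 was the highest knockout array.

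*Lyz2* encodes lysozyme M, a bacteriolytic enzyme of macrophages and neutrophils. At chr10:116719175-116719234 it gave 2.56, 2.91 and 1.31 in control and 1.03, 1.46 and 1.05 in knockout samples, so that control 3 lay among the knockout arrays. The mean difference of -1.08 ranged from -1.56 to -0.76 over the other settings. *Cd68*, an endosomal glycoprotein of macrophages, was dim, with -2.53, -1.56 and -1.42 in control and -2.70, -2.21 and -2.45 in knockout samples at chr11:69478979-69479038. Control 1 was its lowest control, as by the *Csf1r* probe next in brightness, and its mean difference of -0.62 became 0.11 where normexp corrected the background before the same scaling.

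Set side by side, most macrophage transcripts had the same arrays high and low within each genotype. Control 1 was the highest control for 9 of the 13 probes, where 35.7% of all tested probes had it highest, and control 3 the lowest for 11 of 13, against 22.5%. Knockout 2 was the highest knockout for 12 of 13 probes, against 32.3%, and *Retnla* was the exception. Averaged over the 9 genes other than *Retnla*, the centred log2 value was 0.69, 0.48 and -0.62 in control and -0.45, 0.30 and -0.40 in knockout samples. Control 3 was the lowest array of all and knockout 2 stood above it by a wide margin, so the groups overlapped. The mean difference of these 9 genes was -0.36, and it was -0.76 without control 3, -0.60 without knockout 2 and -0.11 without control 1.

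**Figure D3:**
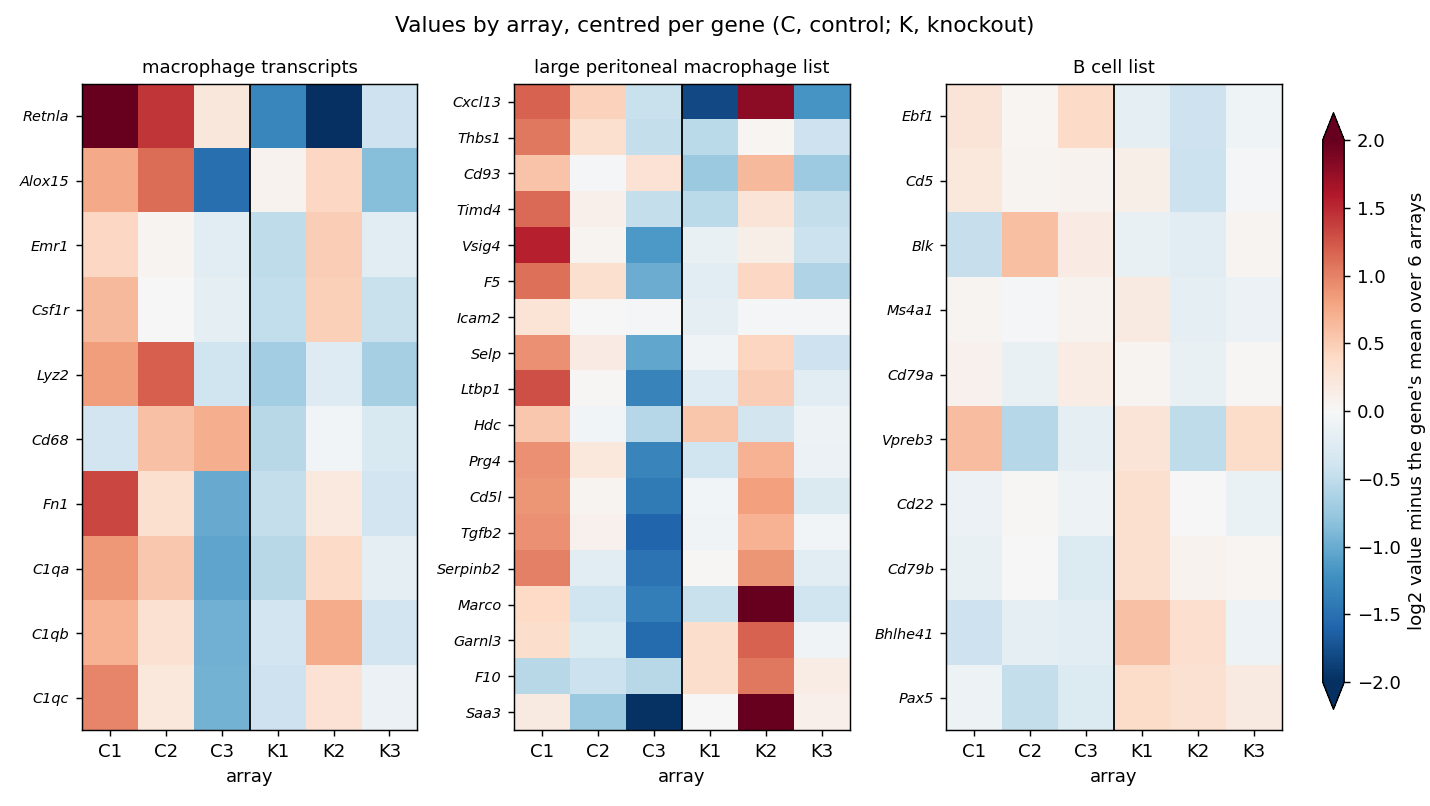
Colours give the log2 value of each tested gene minus its mean over 6 arrays, for the 10 macrophage transcripts, for a list of large peritoneal macrophage genes and for 10 genes of a B cell list, with control arrays C1 to C3 left and knockout arrays K1 to K3 right of the line; the scale ends at ±2. In 16 of the 18 large peritoneal macrophage genes C1 lies above C2 and C2 above C3, as in 7 of the 10 macrophage transcripts.

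The spread between control arrays was large for these genes. Their median control SD was 0.92 on the log2 scale, against 0.17 over all tested genes, and 8 of the 10 lay above the 95th percentile of all genes, 0.54. *Alox15* had the largest SD of the 10, 1.42, followed by *Retnla* at 1.36 and *Fn1* at 1.17, and *Emr1* had the smallest at 0.32. Among the knockout arrays the median SD was 0.50 against 0.25 over all genes, and of the 10 genes *Retnla* alone, with 1.24, lay above the 95th percentile of 0.78. Without control 3, the median control SD of the 10 genes was 0.37.

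**Figure D4:**
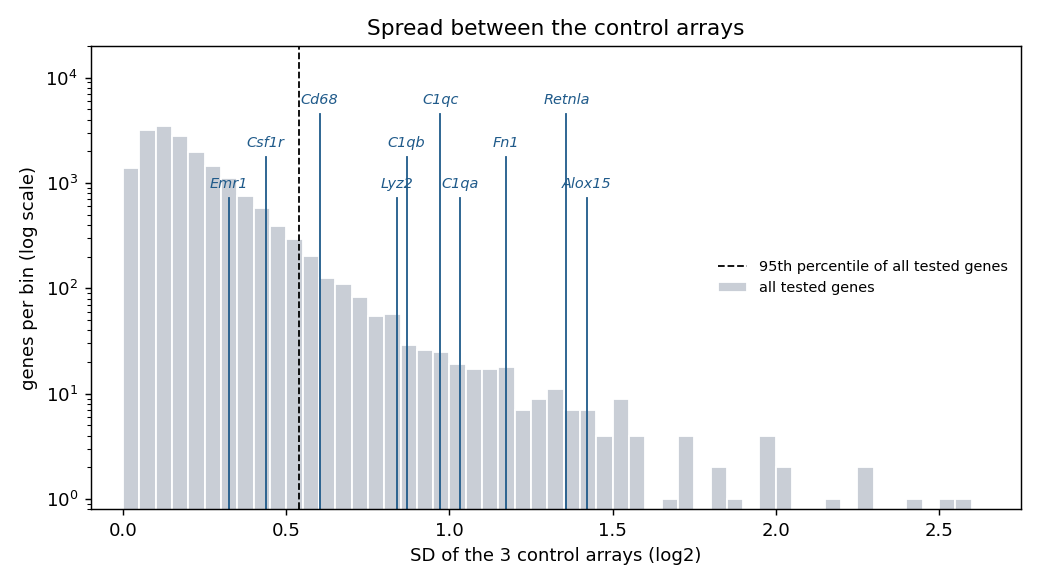
Bars count tested genes by the SD of their 3 control arrays (log2, horizontal) on a log axis, blue lines mark the 10 macrophage transcripts and the dashed line is the 95th percentile of all tested genes, 0.54. *Emr1* and *Csf1r* lie below that line, and the other 8 lie above it, from 0.60 for *Cd68* to 1.42 for *Alox15*.

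*Retnla* did not follow the other macrophage transcripts on the array of knockout 2. There its centred value was -2.86, the lowest of the 6 arrays, while the other 9 genes averaged 0.30. With the mean of the other 9 genes subtracted, *Retnla* stood at 2.25, 0.95 and 0.84 in control and at -0.87, -3.16 and -0.02 in knockout samples, without overlap. Knockout 2 was the dimmest array, and without it the *Retnla* difference was -2.39 in place of -3.06.

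**Figure D5:**
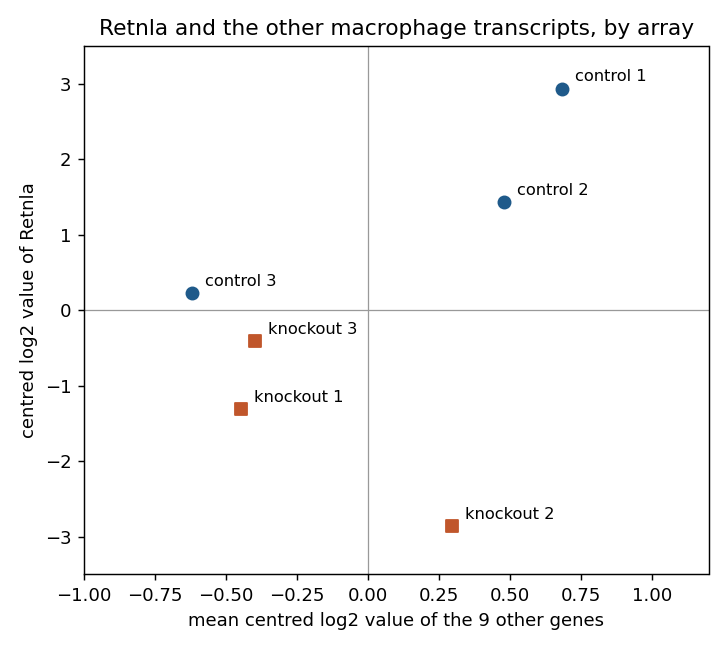
Each point is an array, with the mean centred log2 value of the 9 other macrophage genes on the horizontal axis and the centred value of *Retnla* on the vertical axis, for control (circles) and knockout (squares) samples. Control 1 and knockout 2 both lie right of 0, at 0.69 and 0.30, but at 2.93 and -2.86 for *Retnla*.

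None of the 5 genes nearest to *Retnla* over the 6 arrays was on a macrophage list. Nearness was the root mean square (RMS) difference of centred log2 values over 10823 named genes detected on every array. These were *Igj*, the joining chain of polymeric immunoglobulin, at 0.90, *Krt18*, an epithelial keratin, at 1.01, and *1520402A15Rik*, *Galnt14* and *Rgl3* at 1.02 to 1.15. *Igj* was 2.91, 2.29 and 2.47 in control and 0.42, -0.55 and 2.04 in knockout samples, and *Krt18* was 3.69, 3.33 and 3.27 against 1.55, 1.13 and 2.18. In both, as in *Retnla*, knockout 2 was the lowest and knockout 3 the highest knockout array. Without knockout 2, none of these 5 genes was among the 5 nearest. Among the macrophage transcripts the closest to *Retnla* was *Lyz2*, at an RMS difference of 1.41.

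An RMS difference grows with the size of a profile's own swings, so its values are not compared between profiles. Among the macrophage transcripts *Fn1* was the nearest to the mean of the C1q chains (RMS difference 0.24), then *Emr1* (0.38) and *Csf1r* (0.38). Of the 10823 genes the 5 nearest were *Prg4*, *Selp*, *F5*, *Emilin2* and *Fcna*, at 0.18 to 0.22. *Prg4* (lubricin), *Selp* (P-selectin) and *F5* (coagulation factor V) are on the list of large peritoneal macrophage genes, and *Fcna* encodes ficolin A, which starts the lectin pathway of complement. *Prg4* was 2.98, 2.28 and 0.75 in control and 1.66, 2.76 and 1.95 in knockout samples, and *Fcna* was 0.82, 0.58 and -1.01 against -0.80, 0.34 and -0.67. Without control 3, none of the 5 was among the 5 nearest. Nearest to the mean of *Emr1*, *Csf1r*, *Lyz2* and *Cd68* were *Bola1*, *Zfhx3*, *Pilra*, *Tmem107* and *Dpy19l3*, at 0.12 to 0.16, and at most 3 of these 5 stayed under the settings with other normalization or with an array left out, apart from scaling to the median of detected probes, which kept all 5.

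Further macrophage genes were compared between genotypes with limma, as lists without the 10 transcripts. Of all 18252 genes, 7 (0.0384%) had an adjusted p under 0.05, and 412 (2.26%) were higher and 231 (1.27%) lower in knockout samples by 2-fold or more at an unadjusted limma p up to 0.05. The methods' t-test at the same fold and p called 438 genes in place of these 643. The share of higher genes among these, 64.1%, depended on the scaling, at 46.1% after quantile normalization, 44.7% in the deposited log2 table and 77.4% after scaling to the median of detected probes. The median log2 difference of all tested genes was -0.12. Among 18 tested genes of large peritoneal macrophages 1 was higher at the 2-fold thresholds and none lower, and none passed the adjusted p (median log2 difference 0.03). The number of calls was 3 without control 1 and 2 without knockout 1 or knockout 2. The sign of the median depended on single arrays, since it was 0.51 without control 1, -0.19 without knockout 2 and -0.41 without control 3. The gene called was *F10*, coagulation factor X, with 9.20, 9.33 and 9.20 in control and 10.11, 10.81 and 9.91 in knockout samples (adjusted p = 0.106). The call of *F10* was lost in 6 of 16 other settings, among them those without knockout 2 and after quantile normalization. Its log2 difference was 0.42 at the lowest. The array order of the C1q chains was found in this list too, with control 1 over control 2 over control 3 in 16 of 18 genes (88.9%) and in 12.8% of all tested genes. Knockout 2 was the highest knockout in 17 of 18 (94.4%), against 33% of all. The mean log2 level of the list was 1.86, 1.08 and 0.13 on the control and 0.87, 1.87 and 0.80 on the knockout arrays.

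Among the defining markers of the resident population, *Timd4* was well above background on all 6 arrays, while *Gata6* and *Mertk* were not. *Timd4*, a receptor for dying cells, was 0.54, -0.49 and -1.07 in control and -1.13, -0.33 and -1.06 in knockout samples. *Gata6*, the factor that sets the identity of large peritoneal macrophages, was well above background on 2 control arrays and on no knockout array, and *Mertk*, a receptor tyrosine kinase for dying cells, on 2 control arrays and 1 knockout array. *Cd14*, the co-receptor for lipopolysaccharide, was 0.88, -0.0034 and 0.11 in control and -0.07, 1.44 and -0.63 in knockout samples, again highest in knockout 2.

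Of 21 tested pan-macrophage genes, 6 of which B cells also express, 1 was lower and none higher at the 2-fold thresholds, and none passed the adjusted p (median -0.13). The number of calls was 4 without knockout 2, and it was 0 without control 1 and by the methods' t-test. Leaving out knockout 2 moved the median to -0.57, leaving out control 2 moved it to -0.38, and without knockout 3 its sign turned, to 0.13. The gene called was *Clec7a* (Dectin-1, a receptor for fungal glucans), at -0.21, -1.29 and -1.25 in control and -2.05, -1.65 and -3.20 in knockout samples (adjusted p = 0.143), lost without control 1 or knockout 3. *Itgam*, which encodes CD11b and is used in the sort, was 4.37, 4.21 and 4.05 in control and 4.73, 5.86 and 4.40 in knockout samples (adjusted p = 0.214). Knockout 2 was the highest knockout in 17 of these 21 genes. In contrast control 1 over control 2 over control 3 held in 5 of 21 (23.8%).

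Some phagocyte genes had another array order, noticed after their values were seen. *Ctsl*, a lysosomal protease, was -0.20, -0.73 and 2.49 in control and -0.67, 2.49 and -0.37 in knockout samples. *Gpnmb*, a glycoprotein of lipid-laden macrophages, was well above background on 1 array of each genotype, with 1.76 in control 3 and 1.19 in knockout 2. *Trem2*, a lipid receptor, was highest on the same arrays, at 1.14 in control 3 and 0.36 in knockout 2. Control 3 was thus the lowest array for C1q and the highest or among the highest for these genes.

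Genes of small peritoneal macrophages and monocytes included 2 of 8 tested genes that were lower at the 2-fold thresholds, and none that passed the adjusted p (median -0.15). *Folr2*, a folate receptor of resident macrophages, was -1.58, -2.11 and -2.53 in control samples and not well above background on any knockout array, at least 2.02-fold lower (adjusted p = 0.102). *Mrc1*, the mannose receptor, was 1.55, 1.73 and 1.54 in control and 0.24, 0.22 and 1.13 in knockout samples (adjusted p = 0.110), below 2-fold without knockout 1 or knockout 2. The SD of the *Mrc1* control values was 0.11, below that of each of the 10 transcripts.

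Alternative activation is the state in which *Retnla* is best known, and 14 further genes of it were tested. At the 2-fold thresholds *Ccl17* was higher and *Mrc1* lower, and none passed the adjusted p (median -0.02). *Ccl17*, a chemokine for CCR4, was -0.72, -0.27 and -0.45 in control and 0.83, 1.79 and 1.68 in knockout samples (log2 difference 1.91, adjusted p = 0.0771), and the call held in all 16 other settings. *Chi3l3* (Ym1) was well above background on 1 array of each genotype. *Mgl2*, a galactose-binding lectin, was 7.57, 7.44 and 7.50 in control and 8.33, 8.33 and 8.11 in knockout samples, a log2 difference of 0.76 (adjusted p = 0.0917) under the 2-fold limit. No direction was common to the genes named with *Retnla* in this state.

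Complement genes beyond C1q went partly the other way from *Retnla*. Of 14 tested genes 2 were higher and 1 lower at the 2-fold thresholds, none at the adjusted p (median 0.17). *Cfb*, factor B of the alternative pathway, was 0.46, -0.36 and -1.47 in control and 0.74, 2.05 and 0.70 in knockout samples (adjusted p = 0.149). *C3*, the central component, was 0.46, 0.13 and -0.18 against 0.98, 2.07 and 0.81 (adjusted p = 0.132). Both had the C1q order of arrays within the controls, and both calls were lost without control 3 or knockout 2. *Hc*, which encodes C5, was -2.19, -1.81 and -2.16 in control samples and was well above background on 1 of 3 knockout arrays (adjusted p = 0.129), a call lost without control 2, knockout 1 or knockout 2.

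Of 24 lysosome and phagocytosis genes, 23 had a lower mean in knockout samples, with a median log2 difference of -0.30 against -0.12 over all genes. None passed the 2-fold thresholds or the adjusted p, but 2 passed the 2-fold thresholds without control 3 and 2 without knockout 2, and 18 of the 24 are also expressed by B cells. In 9 of them every knockout value was below every control value, beside 21.6% of all tested genes. Lipid enzymes that act on arachidonic acid like *Alox15* gave no call among 10 tested genes (median -0.16), and 7 of the 10 had control 1 over control 2 over control 3. This median was -0.48 without knockout 2, -0.30 without control 3, 0.03 without knockout 3 and 0.05 without control 1, and 1 gene was called without control 3 and 1 without knockout 3. *Alox5*, the 5-lipoxygenase, was 0.02, -0.82 and -2.61 in control and -1.80, -0.43 and -1.93 in knockout samples.

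Markers of other cells were read for what moves with these values. B cell genes gave no call among 11 (median 0.08), their mean level stayed between 4.17 and 4.44 on all 6 arrays, and none had the array order of the C1q chains. Of 8 tested T cell genes, *Thy1* and *Cd3d* were higher at the 2-fold thresholds (adjusted p = 0.135 and 0.188), and *Cd3d* overlapped between groups. The call of *Cd3d* was lost in 10 of 16 other settings, among them those without control 2, control 3, knockout 2 or knockout 3. *Cd3e* was 0.50, 0.26 and 0.51 in control and 0.75, 1.16 and 1.15 in knockout samples, and the mean level of the list was -0.54 to 0.17 in control and 0.18 to 0.81 in knockout samples. By their means 6 of the 8 tested genes were higher and 2 lower in knockout samples. The lower ones were *Cd3g*, at 1.05, 0.75 and 0.61 in control and 0.78, 0.13 and 0.64 in knockout samples, and *Cd2* (log2 difference -0.15). *Cd8a*, *Cd8b1* and *Il7r* were well above background on 1 knockout array each and on no control array.

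Among 5 tested granulocyte and mast cell genes *Camp*, an antimicrobial peptide, was higher at the 2-fold thresholds (adjusted p = 0.130), a call lost without knockout 2, while 3 genes were called without control 3 and 2 without knockout 3. The mean level of that list was -0.79, -1.37 and -2.41 on control and -2.12, -1.69 and -1.94 on knockout arrays. Control 1 over control 2 over control 3, the order of the C1q chains, held in 4 of these 5 genes (80%), and knockout 2 was the highest knockout in 3 of 5 (60%). That control order also held in 7 of the 14 complement genes (50%), 2 of the 8 T cell genes (25%) and 12.8% of all tested genes, so it was not confined to macrophage lists. The mast cell protease *Mcpt4*, which was not called, was 0.68, -0.44 and -2.88 in control samples, in the order of the *Retnla* controls, and well above background on 1 knockout array. Of the eosinophil genes, *Prg2* and *Epx* were well above background on no array. *Siglec5* (also *Siglecf*) was well above background on 2 control arrays and *Ccr3* on 1 control array, and both on no knockout array. Of 4 tested dendritic cell genes *Batf3* was lower (adjusted p = 0.141), lost without control 2 or knockout 1, and of 4 mesothelial and stroma genes *Col1a2* was higher (adjusted p = 0.0176) and *Krt18* lower (adjusted p = 0.0771). *Col1a2* was dim in control samples, at -4.30, -4.22 and -4.02, and well above background on 2 of these arrays, against -1.77, -1.03 and -1.61 in knockout samples. Its call was lost in 1 of 15 other settings, at a log2 difference of 0.83. The mesothelial markers *Msln*, *Wt1* and *Upk3b* were not well above background on any array. No call was made among the 2 tested NK cell genes, and 1 without control 1. The part of these other cells in the values of the macrophage transcripts was not tested.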

How the data were processed

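The authors hybridised Cy3-labelled RNA to 1-colour Agilent arrays, and the deposited spot intensity of each array came from Agilent Feature Extraction 10.7.1.1, with background subtracted and no scaling between arrays. Deposited quality marks per spot gave outliers and probes well above background. The authors also deposited a table of log2 values whose sorted columns differ by at most 0.000545, which makes them quantile normalized. From the intensities, log2 was taken and the 75th percentile over 59305 non-control spots subtracted; outlier spots were dropped and spots of a probe averaged. Each gene was represented by its brightest tested probe. Genotypes were compared with limma 3.58.1 (lmFit, eBayes) in R 4.3.3, without covariates, with Benjamini-Hochberg adjustment and a threshold of 0.05; precision is limited by the number of arrays, and with 3 per group a two-sided exact permutation p cannot go below 0.1. The fit was tested on simulated data.

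The 10 transcripts and all lists were chosen with earlier results of these data known. Lists come from textbook knowledge and leave out the 10 transcripts. Genes named are the 10 transcripts, *Il2ra*, *Il12b*, *Cd5*, *Itgam*, *Cd3e*, list genes that passed a call, *Gata6*, *Timd4*, *Cd14*, *Mertk*, *Chi3l3* and the 5 nearest genes per profile; further names were chosen after their values were seen, and some genes under this rule are not reported here. Where no array of a group was well above background, only a lower bound of the fold is given, taking for each array its lowest detected value or the probe's own, whichever is higher, and averaging these. Gene names and mm9 coordinates are those of the arrays; exon and UTR annotation was not used here. Alternatives were quantile normalization, scaling to the median of detected probes, normexp correction (offset 50) with either scaling, the deposited log2 table, probes kept without regard to detection or only where detected on all 6 arrays, genes read as the mean of their probes, the methods' t-test, a replicate block, and leaving out single arrays.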

Additional observations from a re-analysis of the deposited data

How the results depend on the processing

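The number of arrays, the dimness of knockout 2 and the single slide limit these results, and the groups of every macrophage probe other than that of *Retnla* overlapped. *Retnla*, *Lyz2* and all 3 *Csf1r* probes kept their sign in all 14 other settings, and the other 8 probes changed it in 1 to 8 of them. Of the calls among list genes, that of *Folr2* turned to 0.060 and that of *Hc* to 0.18 under normexp correction with the 75th percentile; the cause was not tested.

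Over all genes, 7 had an adjusted p under 0.05. The number was 23 after quantile normalization, 6483 under normexp with the 75th percentile, 13 under normexp with quantile normalization, 22 in the deposited log2 table, 2 without a filter on dim probes, 26 with a filter on all 6 arrays, 11 with the mean of the probes, 2 by the methods' t-test and 2 to 92 leaving out 1 array, with 92 without knockout 3. The 643 genes at the 2-fold thresholds became 192 and 162 under normexp with the 75th percentile and with quantile normalization, 10640 without the filter on dim probes, 438 by the methods' t-test, and 530 to 1112 leaving out 1 array, with 1112 without knockout 3. The share of these genes that was higher in knockout samples, 64.1%, was 46.1% after quantile normalization, 77.4% after scaling to the median of detected probes, 53.7% and 80.9% under normexp with the 75th percentile and with quantile normalization, 44.7% in the deposited log2 table, 97.6% without the filter on dim probes, 82.3% with the filter on all 6 arrays and 46.0% without knockout 2. List genes with a 2-fold call, 14 in all, numbered 8 and 5 under the normexp settings, 49 without the filter and 7 by the methods' t-test, which called none of the pan-macrophage, T cell, granulocyte and mast cell, or dendritic cell genes. Without the filter dim probes enter whose scaled floor differs between arrays, and the cause of the other shifts was not tested.

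Macrophage probes whose groups do not overlap numbered 2 after quantile normalization, under normexp with the 75th percentile and in the deposited table, and 1 to 5 leaving out 1 array. The shares of all tested probes under these settings are not given here, so nothing is read from these counts. The median control SD of the 10 genes was 0.37 to 1.27 leaving out 1 array, with 0.37 without control 3. List medians moved by more than the spread between arrays as follows. Small peritoneal macrophage genes had 0.057 with the filter on all 6 arrays. Complement genes had 0.89 without the filter. Lysosome genes had -0.23 after quantile normalization, -0.20 after scaling to the median of detected probes, -0.55 under normexp with the 75th percentile and -0.21 with quantile normalization. B cell genes had -0.19 under normexp with the 75th percentile. NK cell genes had 0.12 under normexp with quantile normalization and 0.15 with the filter on all 6 arrays. Dendritic cell genes had 0.42 after quantile normalization, -0.040 under normexp with the 75th percentile, 0.40 in the deposited table, 0.58 without the filter and 0.14 to 0.36 leaving out 1 array. Mesothelial genes had 1.21 without the filter and -0.71 with the filter on all 6 arrays. Leaving out 1 array moved other medians within the spread between arrays, from -0.41 to 0.51 for large peritoneal macrophage genes, -0.57 to 0.13 for pan-macrophage genes, -0.48 to 0.05 for arachidonate enzymes, -0.24 to -0.02 for small peritoneal macrophage genes, -0.09 to 0.05 for alternative activation, 0.09 to 0.26 for complement and -0.04 to 0.15 for B cell genes.

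With the replicate number as a block, 4 genes had an adjusted p under 0.05 and 647 passed the 2-fold thresholds. Same-numbered arrays deviated together only weakly, with correlations across genes of 0.19, 0.06 and 0.09, and knockout 2 was closest to control 3, so the numbers were not taken as pairs.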
